A study of Mus musculus with 18 samples.

Results

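The clustered protocadherin genes lie in tandem on mouse chromosome 18 and were followed here through 6 lists of called chromatin regions from mouse liver. They were taken as all protein-coding genes of GENCODE vM21 on this chromosome whose symbol has the form of a Pcdha, Pcdhac, Pcdhb, Pcdhga, Pcdhgb or Pcdhgc gene with a number. This gave 57 of 21938 protein-coding genes, with 14 in the alpha, 22 in the beta and 21 in the gamma subcluster. Pcdhgb8, which GENCODE classes as a polymorphic pseudogene, was not counted. GENCODE gives the symbol Pcdha11 to 2 genes, and the one with identifier ENSMUSG00000007440.10 is called Pcdha10 below, as in RefSeq.

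Lamin B1 and trimethylated lysine 9 of histone H3 (H3K9me3) were profiled by ChIP-Seq in wild-type C57BL/6 livers, from young mice aged 3 months and old mice aged 21 months, each antibody and age having 2 replicates. Foxa2 was profiled in livers of C57BL/6 mice aged 12 weeks, in wild-type (WT) mice and in Zmpste24 KO mice, with 3 replicates per genotype. Zmpste24 is the protease that matures prelamin A, and its loss in all tissues gives an early ageing syndrome, so the mutant is a model of altered lamina and not of normal age. The replicates of each condition were merged before regions were called, so each condition is 1 list without replicate spread, and no difference between ages or genotypes could be tested. The lists hold positions alone, with no signal and no expression, so the liver label could not be checked against marker transcripts. The H3K9me3 lists are tied to an age by their names alone. They hold far fewer regions than the study's text reports, so they may be another call of the same data. According to the study's read summary, H3K9me3 was sequenced more deeply in old than in young livers and lamin B1 less deeply, and the part of depth in the differences below was not tested.

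Clustered protocadherins are cell surface adhesion proteins, known mainly from neurons, where each cell expresses its own combination of them from alternative promoters and so carries an identity that lets its branches recognise themselves. Each variable first exon of the alpha and gamma subclusters encodes the outside, the membrane span and part of the inside of the protein and is spliced to 3 constant exons shared by the whole subcluster, while beta genes have no constant exons. The promoters are known to be bound by CTCF and cohesin when active and to be held silent by DNA methylation and by H3K9me3 placed by SETDB1, a mark of constitutive heterochromatin. Lamin B1 is a protein of the nuclear lamina, and the regions it binds are generally silent chromatin at the nuclear edge. In the lists used here, lamin B1 was called in 17.6% of genome windows in young and 35.1% in old livers. It reached 36.1% and 62.3% of all protein-coding first exons, so its calls are not read here as silence.

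In mm10 the locus ran from the start of Pcdha1 at chr18:36930184 to the end of the gamma genes at 37841873, a span of 912 kb with all 57 genes on the plus strand. The alpha genes filled chr18:36930184-37187661 (257 kb), the beta genes chr18:37264938-37524479 (260 kb) and the gamma genes chr18:37661793-37841873 (180.1 kb). A stretch of 77.3 kb separated alpha from beta genes and one of 137 kb separated beta from gamma genes. Because the variable exons of a subcluster share their constant exons, alpha gene bodies overlap each other, as do gamma gene bodies. A single region can therefore touch many members at once, and the members are not independent observations.

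H3K9me3 covered nearly all of the variable first exons at both ages, and lamin B1 covered the gamma subcluster alone among the 3 subclusters. In young livers 55 of 57 first exons (96.5%) touched an H3K9me3 region, against 13% of the first exons of all protein-coding genes. In old livers the count was again 55 of 57, against 24.4% of all genes. The exceptions at both ages were Pcdhac1 and Pcdhac2, the C-type members at the end of the alpha array, which are known to be controlled differently from the other alpha promoters. For lamin B1, 21 of 57 first exons (36.8%) lay in a region in young livers, a share near the 36.1% of all genes, and the same number in old livers, where the share of all genes was 62.3%. Those 21 were the whole gamma subcluster at both ages, and 0 of 14 alpha and 0 of 22 beta first exons touched a lamin B1 region.

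**Figure D1:**
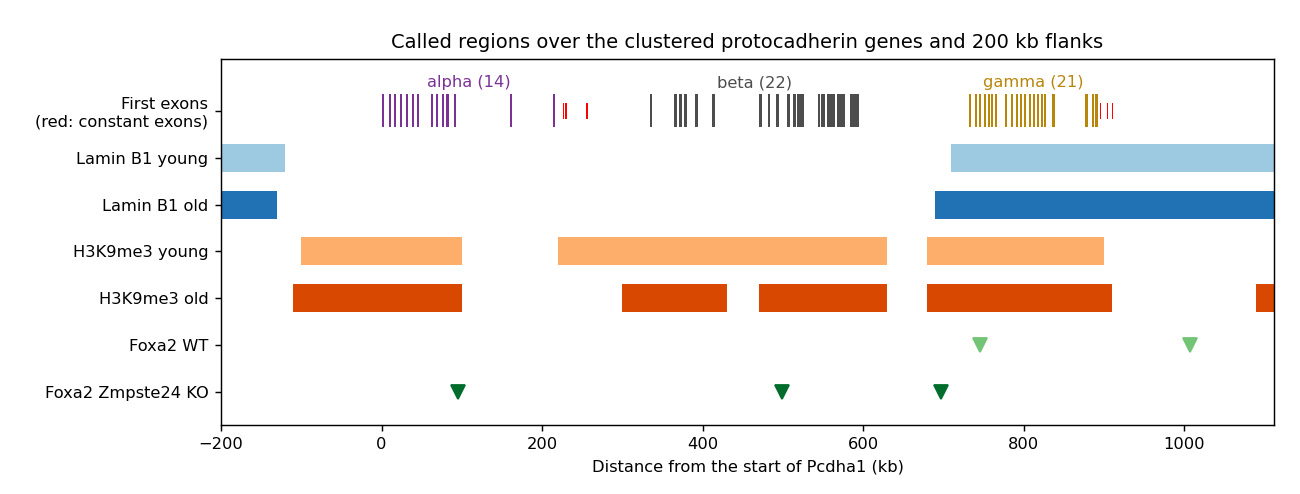
The horizontal axis is the distance in kb from the start of Pcdha1, with 200 kb on either side of the locus. The top row draws the first exons of the 14 alpha, 22 beta and 21 gamma genes with the constant exons in red, bars are regions of lamin B1 and H3K9me3 (clipped at the plot edge), and triangles are Foxa2 sites. The gamma genes sit in both kinds of region, the beta genes and Pcdha1 to Pcdha12 in H3K9me3 alone, and Pcdhac1 and Pcdhac2 between regions.

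Taken over whole gene bodies, 57 of 57 members touched H3K9me3 in young livers, against 16.5% of all protein-coding genes, and 55 of 57 in old livers, against 29.6%. Lamin B1 touched 21 of 57 bodies at each age, against 38.8% of all genes in young and 64.8% in old livers. Thus the share of all genes reached by lamin B1 was higher in the old list, while the count of protocadherin genes was equal in the lists of both ages.

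**Figure D2:**
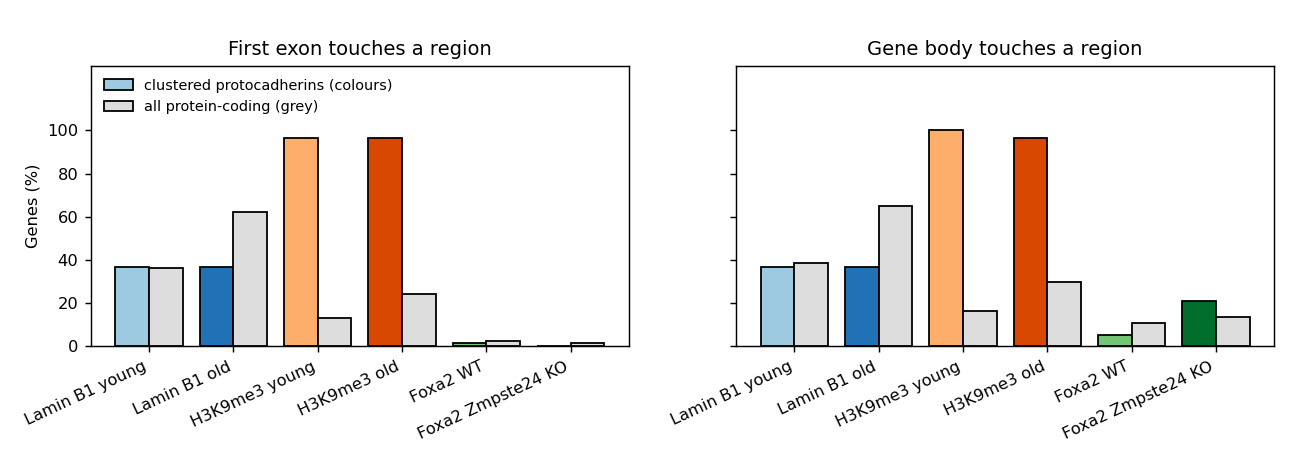
Bars start at 0 and give the percent of genes whose first exon (left) or gene body (right) touches a region of each list, coloured for the 57 clustered protocadherin genes and grey for all 21938 protein-coding genes. H3K9me3 reaches 96.5% of the members' first exons at both ages, and lamin B1 36.8%.

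The members fell into 3 states over the 4 lists. The first, H3K9me3 at both ages with lamin B1 at neither, held 34 members (59.6%), namely Pcdha1 to Pcdha12 and all 22 beta genes. Of all protein-coding genes, 1.62% had this state. The second, H3K9me3 and lamin B1 at both ages, held the 21 gamma genes (36.8%), against 2.43% of all genes. The third held Pcdhac1 and Pcdhac2, whose first exons lay in none of the 4 lists, as did those of 27.1% of all genes. Not 1 of the 57 first exons gained or lost a region of lamin B1 or H3K9me3 between the lists of young and old livers. The share of all protein-coding first exons that did so was not computed. The marked first exons lie in a few shared regions, so they are not 57 separate observations.

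Alpha genes, which encode the protocadherins first found as cadherin-related neuronal receptors, were divided by the end of an H3K9me3 region after Pcdha12. In young livers this region spanned chr18:36830001-37030000 (200 kb) and in old livers chr18:36820001-37030000 (210 kb), so that its end lay on the same base at both ages. It held the first exons of Pcdha1 to Pcdha12 and stopped 60.01 kb before that of Pcdhac1. Both lists place region ends on the borders of 10 kb windows, so smaller shifts would not be seen.

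The alpha constant exons, which encode the shared cytoplasmic end of all 14 alpha proteins, differed between the lists. They lie at chr18:37156155-37156213 (59 bp), chr18:37159265-37159353 (89 bp) and chr18:37184946-37187657 (2712 bp). All 3 were wholly inside an H3K9me3 region in young livers and wholly outside in old livers. This young region began 3.47 kb after the first exon of Pcdhac2. As a result H3K9me3 covered 85.3% of the Pcdhac2 body and 38.6% of the Pcdhac1 body in young livers and 0% of both in old livers. Pcdha1 went from 53.4% of its body to 38.8%, and Pcdha12, whose body is the shortest of the 12 with a marked first exon, from 28.4% to 5.88%. These differences all rest on the same stretch shared by the alpha bodies and are not separate events. Lamin B1 covered 0% of every alpha body at both ages, and its nearest region ended 120 kb before Pcdha1 in young and 130 kb before it in old livers.

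**Figure D3:**
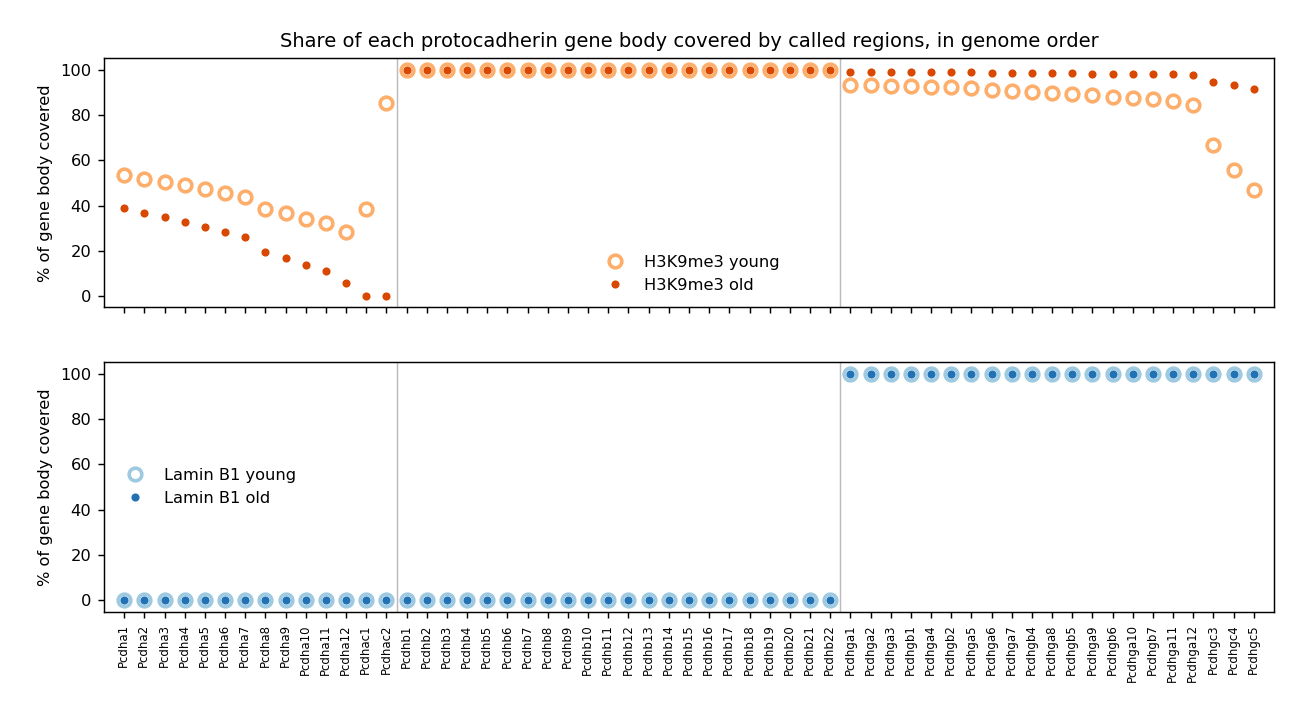
Each column is 1 of the 57 genes in genome order, and the vertical axis gives the percent of its body inside H3K9me3 regions (top) and lamin B1 regions (bottom), with open circles for young and dots for old livers. H3K9me3 coverage is lower in old livers for all 14 alpha genes, 100% at both ages for the beta genes and higher in old livers for all 21 gamma genes, whereas lamin B1 coverage is 0% or 100% throughout. The alpha differences rest on a single shared stretch and the gamma differences on a single window, so they are not separate events.

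Beta genes, which lack constant exons and carry their own cytoplasmic ends, were wholly covered by H3K9me3 at both ages. In young livers a single region, chr18:37150001-37560000, spanned all 22 of them. It was 410 kb long, longer than 89.98% of the 2784 regions in its list. In old livers there were 2 regions instead, chr18:37230001-37360000 (130 kb) with Pcdhb1 to Pcdhb8 and chr18:37400001-37560000 (160 kb) with Pcdhb9 to Pcdhb22. The 40 kb between them held no first exon of a member. The study's lamin B1 calls allowed gaps between windows, and whether the H3K9me3 calls did is not given. The part of such joining in this split was not tested, and a covered feature need not be enriched itself. The body of each beta gene remained 100% covered in old livers, while H3K9me3 cover of the subcluster from first start to last end was 100% in young and 84.6% in old livers. The far end, 37560000, was again the same base at both ages.

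Gamma genes, whose A, B and C types share 1 set of constant exons, were the only members inside lamin B1 regions, and each was covered over 100% of its body at both ages. The young lamin B1 region was chr18:37640001-38100000 (460 kb, longer than 83.6% of its list of 1624). It began 21.8 kb before the first exon of Pcdhga1 and 116 kb after that of Pcdhb22. The old region, chr18:37620001-39410000, was 1790 kb long (longer than 93.9% of its list of 1519). It began 20 kb further upstream, in the stretch without members, and reached over 1 Mb further downstream. The median region was 200 kb in the young and 340 kb in the old lamin B1 list.

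H3K9me3 over the gamma genes spanned chr18:37610001-37830000 (220 kb) in young and chr18:37610001-37840000 (230 kb) in old livers. Its start, 85.5 kb after the first exon of Pcdhb22, was the same at both ages, and its end lay 1 window of 10 kb further along in old livers. That window holds the second gamma constant exon, chr18:37833265-37833353 (89 bp), which was outside H3K9me3 in young and wholly inside in old livers. The first constant exon, chr18:37825021-37825079 (59 bp), was inside at both ages. Of the third, chr18:37839903-37841873 (1971 bp), H3K9me3 covered 0% in young and 4.97% (98 bp) in old livers. Body coverage of Pcdhga1, the first gamma gene, was 93.4% in young and 99.0% in old livers. Values for the C-type members at the end of the array differed most, at 66.6% and 94.7% for Pcdhgc3, 55.7% and 93.0% for Pcdhgc4, and 46.9% and 91.6% for Pcdhgc5. These rest on a single window and are not separate events.

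Across the 92 windows of 10 kb that make up the locus, lamin B1 was called in 21 in young and 23 in old livers, and all 21 young windows were among the old ones (100%). Over the genome 71.2% of young lamin B1 windows were also called in old livers. Of the 23 old windows 91.3% had been called in young livers, against 35.7% over the genome. H3K9me3 was called in 73 windows in young and 62 in old livers, of which 61 were the same. These make up 83.6% of the young windows, against 42.3% over the genome, and 98.4% of the old windows, against 39.5%. The lamin B1 windows of the locus are neighbouring pieces of a single region at each age, and the H3K9me3 windows are pieces of a few regions. Windows are therefore not independent observations, and the shares of the locus rest on those few regions. The 12 windows with H3K9me3 in young livers alone were 8 neighbouring windows from the alpha constant exons to the stretch before Pcdhb1 and 4 between Pcdhb8 and Pcdhb9, and none of the 12 held a first exon. In percent of windows, lamin B1 occupied 22.8% of the locus in young livers and 25% in old ones, compared with 17.6% and 35.1% of the genome and 18.8% and 36.0% of chromosome 18. H3K9me3 occupied 79.3% and 67.4% of the locus, against 21.7% and 23.3% of the genome and 12.9% and 26.8% of chromosome 18.

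The H3K9me3 regions of a list were also ordered by the number of protein-coding first exons they touch. With neighbours and read-through gene models counted too, the young gamma region touched 23 and ranked 2 of 2784, the young beta region touched 22 and ranked 3, and the young alpha region touched 15 and ranked 5. The median young H3K9me3 region touched 0 first exons. The members form dense tandem arrays, so any region that spans a subcluster holds many first exons. By length the young gamma, beta and alpha regions ranked 810, 269 and 941 of 2784. In the old list the gamma region, again with 23, ranked 7 of 2496, and the alpha region, with 15, ranked 30. The old beta regions ranked lower, at 39 with 14 first exons and at 133 with 8, and the median old region touched 1.

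The genes that flank the protocadherins were in lamin B1 and not in H3K9me3, the reverse of the beta genes and of Pcdha1 to Pcdha12. On the downstream side they shared the lamin B1 region of the gamma genes. Within 200 kb before Pcdha1 lay 8 protein-coding genes, among them Hars and Hars2, the cytoplasmic and mitochondrial histidyl-tRNA synthetases, Ik, a splicing factor, and Ndufa2, a subunit of respiratory complex I. All 8 first exons were in lamin B1 at both ages and 0 in H3K9me3. The 5 genes within 200 kb after the gamma subcluster, including Diaph1, an actin nucleator, and Hdac3, a histone deacetylase, were likewise in lamin B1 at both ages and not in H3K9me3. Lamin B1 covered 100% of this downstream flank at both ages, and H3K9me3 0% in young and 10.9% in old livers. In the upstream flank lamin B1 covered 39.9% and 34.9%, and H3K9me3 50.1% and 55.1%. Between beta and gamma genes lie Slc25a2, a mitochondrial ornithine carrier, and Taf7, a subunit of the general factor TFIID. Both were in H3K9me3 at both ages. Taf7 was in lamin B1 at both ages and Slc25a2 in old livers alone, so the 20 kb by which the old region began earlier held 1 gene, which is no protocadherin.

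**Figure D4:**
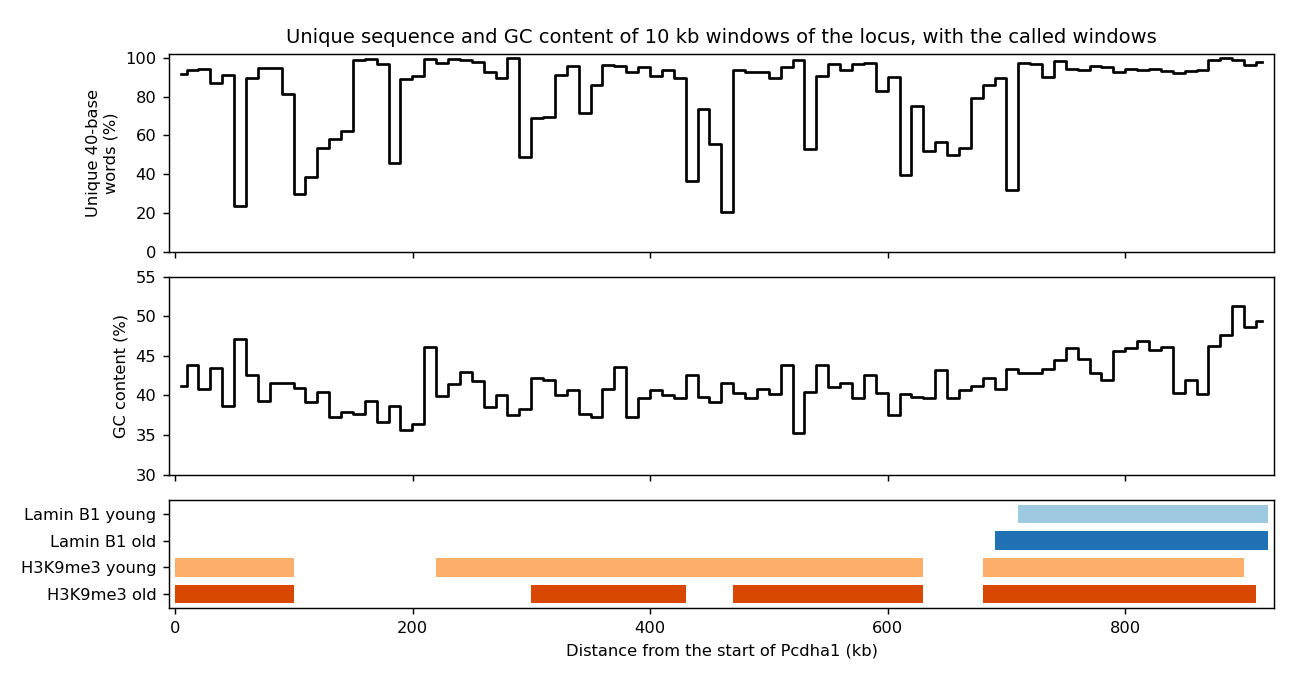
The horizontal axis is the distance in kb from the start of Pcdha1 over the 92 windows of 10 kb. The lines give the percent of 40-base words that occur once in the genome (top) and the GC content in percent (middle), and the bars below mark the windows called in each list. Windows without H3K9me3 hold less unique sequence (median 62.3% in young livers) than windows with it (93.4%).

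Protocadherin genes arose by duplication and resemble each other, and the study kept uniquely aligned reads alone, so the share of 40-base words of the reference that occur once in the genome was computed for each member. Some reads of the study were longer than 40 bases, and for those the words may understate unique alignment. The median first exon was unique over 94.2% of its words. Alpha first exons had the lowest median (82.5%), with 69.9% for Pcdha6, while beta first exons had 94.6% and gamma first exons 98.3%. The first exons of Pcdhac1 and Pcdhac2, those without H3K9me3, were unique over 100%. For whole windows the order went the other way. The 73 windows with H3K9me3 in young livers had a median of 93.4% unique words and the 19 without it 62.3%, with a range from 29.5% to 99.5%. Of the windows called in young livers alone, 7 of the 8 from the alpha constant exons onward were unique over 89.8% to 99.8% and the last over 49.1%. The 4 between Pcdhb8 and Pcdhb9 were unique over 36.4%, 73.8%, 55.6% and 20.4%. The ends of the alpha and beta regions that were the same at both ages also lay beside less unique sequence. The last window of the alpha region was unique over 81.3% and the next over 29.5%, and the last window of the beta region over 75.0% and the next over 52.0%. Of the 2 windows with lamin B1 in old livers alone, 1 was unique over 89.7% and the other, next to the young start, over 31.7%. The part of unique alignment in that interval and at these boundaries was not tested.

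In base composition the members differed from the typical gene and from each other. Their first exons had a median length of 2613 bp, against 210 bp for all protein-coding genes. Median GC content was 53.0% in alpha, 45.1% in beta and 52.6% in gamma first exons, against 59.5% for all genes. The ratio of observed to expected CpG had a median of 0.651 in alpha, 0.420 in beta and 0.533 in gamma first exons and of 0.643 for all genes. Windows of the locus in lamin B1 of young livers had a higher median GC content (45.7%) than the others (40.3%). Those 21 windows run from Taf7 through the gamma genes.

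The word CGCT, the core of the conserved sequence element known from most clustered protocadherin promoters, was sought on both strands from 250 bases before to 50 bases after each start. It was found at 55 of 57 members (96.5%), all but Pcdhb22 and Pcdhga12, and at 67.1% of all protein-coding genes. A word of 4 letters occurs often by itself, and a match is no evidence of a working element. The forkhead core TGTTTAC, the kind of word that Foxa proteins bind, was found at 2 members (3.51%), Pcdhac2 and Pcdhb5, and at 3.05% of all genes.

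Foxa2, a forkhead factor that opens chromatin at liver genes, had 1 site in the locus in WT and 3 in Zmpste24 KO livers. In WT livers 1 of 57 first exons (1.75%) held a site, against 2.35% of all protein-coding genes, and in Zmpste24 KO livers 0 of 57, against 1.49%. The WT site, chr18:37674709-37675933 (1225 bp), lay within the first exon of Pcdhga3. It was inside lamin B1 and H3K9me3 regions of both ages, and the bodies of 3 gamma genes spanned it. It holds 1 match to the forkhead core, as 27.7% of WT sites hold at least 1.

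The Zmpste24 KO list had 3 sites in the locus, all outside exons of the members and none with a match to the forkhead core, which 23.4% of KO sites hold. The first, chr18:37025089-37026106 (1018 bp), lay 2.47 kb after the first exon of Pcdha12, near the end of the alpha H3K9me3 region. The second, chr18:37427894-37429013 (1120 bp), lay between Pcdhb11 and Pcdhb12, 2.06 kb after the former. The third, chr18:37626926-37627356 (431 bp), lay 34.4 kb before Pcdhga1, nearest to the start of Slc25a2. This last site was in the 20 kb that lamin B1 covered in old livers alone, and 12.6 kb outside the young region. No site was shared between genotypes, and the closest pair lay 47.4 kb apart. The study's own overlap leaves most sites of each genotype unshared over the genome. The lack of sharing among these few sites is therefore not read as a trait of the locus. In the flanks there was 1 more WT site, chr18:37936446-37937513 (1068 bp) in an exon of Hdac3, which lay in lamin B1 at both ages and outside H3K9me3.

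All 4 Foxa2 sites of the locus lay in H3K9me3 regions of both ages. Genomewide 10.3% of WT and 9.97% of Zmpste24 KO sites did. H3K9me3 covered 80.1% of the locus in the young list and 68.0% in the old one, and the sites are read against that cover. The Foxa2 livers and the H3K9me3 livers came from different mice. Sites were 1.097 per Mb of the locus in WT livers (1 site) against 1.87 per Mb of the genome, and 3.29 per Mb in Zmpste24 KO livers (3 sites) against 3.09. With 1 and 3 sites these densities are counts too small to compare. Over gene bodies, 3 members were touched in WT livers, against 10.6% of all genes, and 12 in Zmpste24 KO livers, against 13.6%, and the 12 were Pcdha1 to Pcdha12 with the same single site in their shared span. With 200 kb added on each side, 29 of 57 members had a WT site and 57 of 57 a KO site, against 60.8% and 73% of all genes. With 50 kb instead, the counts were 11 and 23 members, against 30.5% and 38.5% of all genes.

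**Figure D5:**
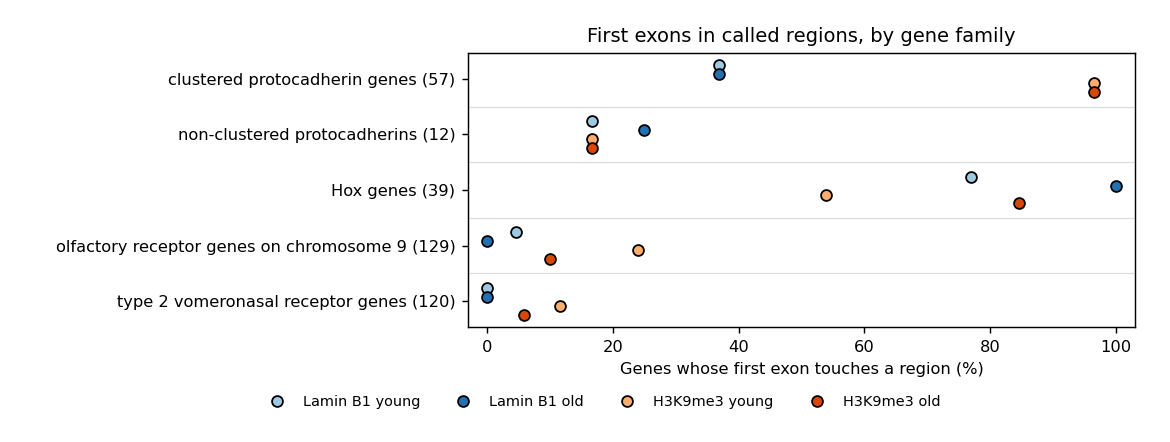
Each point gives the percent of genes in a family whose first exon touches a region of a list, with the number of genes in brackets and light colours for young and dark colours for old livers. The clustered protocadherins have the highest H3K9me3 values at both ages (96.5%) among the 5 families drawn, and equal lamin B1 values at both ages (36.8%).

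The other protocadherins and the few other gene families compared had different patterns, given here as counts without a test. Zinc finger and histone gene clusters were not compared. Of 12 non-clustered protocadherin genes, which have no shared constant exons, 2 had a first exon in H3K9me3 at each age, and lamin B1 held 2 in young and 3 in old livers. Of these 12, Pcdh12, an endothelial protocadherin, was in lamin B1 at both ages, and Pcdh10 was in lamin B1 and H3K9me3 in young livers alone. Hox genes, a cluster family of developmental regulators, had 21 of 39 first exons in H3K9me3 in young livers and 33 in old ones, with 30 and 39 in lamin B1. Olfactory receptor genes on chromosome 9 had 31 of 129 first exons in H3K9me3 in young and 13 in old livers, with 6 and 0 in lamin B1. Type 2 vomeronasal receptor genes had 14 and 7 of 120 in H3K9me3 and 0 in lamin B1 at both ages. Of all protein-coding first exons, H3K9me3 held 13% in young and 24.4% in old livers, and lamin B1 36.1% and 62.3%.

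Among 16 genes for proteins that bind or silence the protocadherin clusters, lamin B1 held 9 first exons in young (56.25%) and 10 in old livers (62.5%). H3K9me3 held 2 (12.5%) and 3 (18.75%). The shares of all protein-coding genes were 36.1% and 62.3% for lamin B1 and 13% and 24.4% for H3K9me3. Atf7ip, the partner of SETDB1, was in all 4 lists. Ctcf, which encodes the factor bound at active protocadherin promoters, had its first exon in lamin B1 in young livers alone. Setdb1 had its first exon there in old livers alone. Over gene bodies, lamin B1 still covered 6.30% of Ctcf in old livers and 48.9% of Setdb1 in young livers. Trim28, the corepressor that recruits SETDB1, was in lamin B1 at both ages. Foxa2 touched 1 of the 16 first exons in each genotype, that of Smchd1 in WT and that of Rad21, a cohesin subunit, in Zmpste24 KO livers. Of all protein-coding first exons it touched 2.35% in WT and 1.49% in Zmpste24 KO livers.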

How the data were processed

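Of the deposited data, 6 lists of regions were used, 4 for lamin B1 or H3K9me3 by age and 2 for Foxa2 by genotype. Each deposited list gives positions in mm10, with no signal, score, count or value per replicate. The authors aligned single-end reads with BWA, dropped duplicates (Picard) and reads without a unique alignment, and merged replicates. Lamin B1 regions were called with Epic (10 kb windows and a set gap size), SICER being named in the submitters' processing notes. Foxa2 sites were called with PeakSeq against input, with mutant reads reduced to the wild-type number. The caller of the H3K9me3 lists is not given in the sources used here. Those lists hold far fewer regions (2784 in young and 2496 in old livers) than the study's text reports. They may be another call of the same data. Depth per sample is not in the files. H3K9me2 was not analysed here.

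The members and the comparison lists were chosen with earlier results of these data known. Every member could be named, and the text names the first and last member of each subcluster, members beside region boundaries, C-type members, members nearest to Foxa2 sites, neighbours within 200 kb and the comparison genes. A feature touched a region at an overlap of at least 1 bp. The first exon was that of the transcript starting furthest upstream. Coordinates count from 1. Genes came from GENCODE vM21 and sequence from GRCm38.p6. Distances and coverage were computed in Python 3.11.15 with numpy 2.4.6, pandas 2.3.3 and numba 0.67.0, and drawn with matplotlib 3.10.9. All 4 calculations were checked on simulated data, with 200 of 200 trials recovered in each. No test between conditions was run, because each condition is 1 merged list, and no interval is given, because members share regions. Alternatives to the overlap rule, feature, flank, region length, joining of regions, gene set and background were computed.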

Additional observations from a re-analysis of the deposited data

How the results depend on the processing

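Of 56 alternatives, 38 left the value within the spread allowed (1.5 times for counts) and 18 moved it. Percents were judged by other limits, so the tally mixes rules. Foxa2 WT cover of 0.175%, or 0.412% with a 500 kb flank, was classed as kept. The share of all first exons in old lamin B1, 62.3% or 61.0% on chromosome 18 alone, was classed as moved. Counts of members in lamin B1 or H3K9me3 never moved beyond 1.5 times. The alternatives included the start site alone, the whole first exon, regions of at least 50 kb and joined regions. Those named could not have moved a count, because every region there was longer than 50 kb and gaps exceeded the 30 kb joined. Each first exon also lay wholly inside or wholly outside the regions. With at least 50% of the gene body required, 46 members remained in H3K9me3 in young and 43 in old livers. Covered percent of the locus with flanks depended on the flank. With 200 kb lamin B1 covered 36.7% (young) and 37.5% (old), and H3K9me3 63.3% and 57.3%. With 100 kb it was 27.2% and 29.0% for lamin B1 and 74.6% for H3K9me3 in young livers. With 500 kb it was 52.4% for lamin B1 in old livers and 43.4% for H3K9me3 at both ages. For Foxa2, the 1 first exon in WT livers became 0 with the start site alone or the whole exon required, and the 3 WT and 12 Zmpste24 KO bodies became 0 with at least 50% of the body required, since a site is far shorter than a gene. With a 50 kb flank 11 members had a WT site and 23 a KO site. On chromosome 18 alone, the share of all first exons was 38.8% and 61.0% for lamin B1, 21.1% and 30.6% for H3K9me3 and 2.73% and 2.14% for Foxa2. No paired analysis was possible because the lists merge the replicates, and for the same reason no replicate could be left out.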
